A study of Homo sapiens with 6 samples.

Results

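The zinc finger genes of chromosome 19 were examined for acetylation of lysine 27 of histone H3 (H3K27ac), a mark of active promoters and enhancers, in SU-CCS-1. This is an established line of human clear cell sarcoma cells whose EWSR1::ATF1 fusion joins part of EWSR1 to the DNA-binding domain of ATF1. The members were the 246 protein-coding genes on chromosome 19 whose symbol in GENCODE version 44 is ZNF followed by a number. They were 246 of the 1476 protein-coding genes of the chromosome and of 20033 in the genome, with 83 on the short arm and 163 on the long arm. The series holds 3 H3K27ac ChIP samples and 3 input samples of SU-CCS-1 cells, all with the same fusion and with no treatment in the labels, input being sonicated chromatin sequenced without immunoprecipitation. The deposited file is 1 merged list of 30784 broad peaks on hg38, without read counts, scores or values for any sample. There was therefore no replicate error, no test between samples and no known depth behind a peak, and the 95% intervals below cover counting of genes or peaks only.

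Most of these genes encode transcription factors with a row of Cys2-His2 zinc fingers, each of which contacts a few bases of DNA. Many also carry a Krüppel-associated box (KRAB), which recruits TRIM28 and, through it, the histone methyltransferase SETDB1 and the DNA methylation machinery to silence bound sequences, retroelements in particular. The family grew by repeated tandem duplication, which left dense clusters of similar genes on chromosome 19. A KRAB A box was found in the canonical protein of 207 members, and the median number of zinc fingers was 12, with quartiles of 9 and 15.

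A gene was called H3K27ac-positive at its promoter when any base of a peak lay within 3 kb of the start of any of its annotated transcripts. By this rule 206 of the 246 members (83.7%, 95% Wilson interval 78.6% to 87.8%) had a promoter peak, against 737 of 1230 (59.9%, 57.2% to 62.6%) other protein-coding genes of chromosome 19 and 12701 of 20033 (63.4%) protein-coding genes in all. The short arm held 71 positive members of 83 (85.5%, 76.4% to 91.5%) and the long arm 135 of 163 (82.8%, 76.3% to 87.8%), so the intervals of the arms overlapped widely. Other genes of the same arms were positive at 67.9% (379 of 558, short) and 53.3% (358 of 672, long). ZNF genes of other chromosomes stood close to those of chromosome 19, with 215 of 262 positive (82.1%, 77% to 86.2%). The members' share was thus above that of their chromosome, but within the interval of the same family elsewhere.

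The arms were divided into 10 clusters, runs of at least 5 members whose neighbouring starts lay at most 500 kb apart, numbered from the end of the short arm. They held 232 members, of which 193 (83.2%) were positive, and 13 of the 14 members outside clusters were positive (92.9%). Cluster 3 (ZNF653 to ZNF791, chr19:11483427-12640098) was positive at all 25 members (100%, 86.7% to 100%), among them ZNF44, ZNF136 and ZNF20. Cluster 10 (ZNF264 to ZNF446, chr19:57191500-58481230), near the end of the long arm, was positive at 41 of 43 (95.3%, 84.5% to 98.7%). Cluster 7 (ZNF575 to ZNF180, chr19:43525497-44500524) stood lowest, with 10 of 23 positive (43.5%, 25.6% to 63.2%), and its interval did not overlap those of clusters 3, 6, 8, 9 and 10. Cluster 4 (ZNF101 to ZNF254, chr19:19668796-24129968), which runs up to the centromere, was positive at 28 of 37 members (75.7%, 59.9% to 86.6%). Without cluster 7 the long arm was positive at 89.3% of its 140 members, and without cluster 4 the short arm at 93.5% of its 46.

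**Figure D1:**
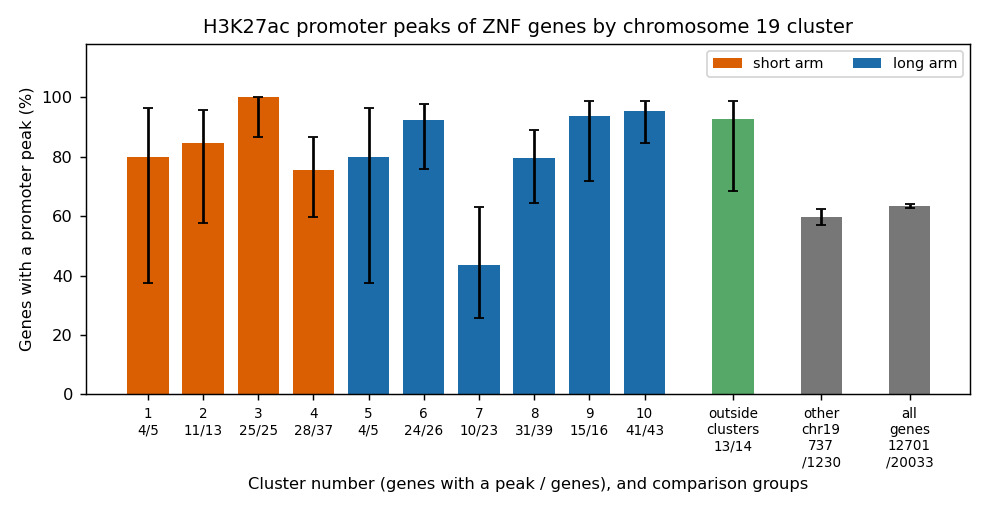
Share of zinc finger genes with an H3K27ac promoter peak (y axis, percent) in each of the 10 clusters (x axis, with positive genes over all genes), outside clusters, in other chromosome 19 genes and in all protein-coding genes, where error bars are 95% Wilson intervals. Cluster 7 stands lowest at 10 of 23, and cluster 3 is positive at 25 of 25.

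Promoter sequences of 4 members are shown, as pairs of the same cluster that differed in their call. They are given as 250 bases before and 50 bases after the canonical start in hg38, 5′ to 3′ in the direction of transcription, with CG dinucleotides in capitals. ZNF91, known for silencing SVA and LINE-1 elements, was positive and ZNF208, also of cluster 4, was not. ZNF180 was positive and ZNF229, also of cluster 7, was not.
ZNF91 (chr19:23395422-23395721, reverse strand): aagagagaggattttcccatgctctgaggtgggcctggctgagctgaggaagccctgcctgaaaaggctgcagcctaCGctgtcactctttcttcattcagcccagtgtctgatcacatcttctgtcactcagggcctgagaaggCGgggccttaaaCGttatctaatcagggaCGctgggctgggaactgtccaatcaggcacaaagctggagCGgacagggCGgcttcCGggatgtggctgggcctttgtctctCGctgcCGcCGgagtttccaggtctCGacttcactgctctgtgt
ZNF208 (chr19:22010894-22011193, reverse strand): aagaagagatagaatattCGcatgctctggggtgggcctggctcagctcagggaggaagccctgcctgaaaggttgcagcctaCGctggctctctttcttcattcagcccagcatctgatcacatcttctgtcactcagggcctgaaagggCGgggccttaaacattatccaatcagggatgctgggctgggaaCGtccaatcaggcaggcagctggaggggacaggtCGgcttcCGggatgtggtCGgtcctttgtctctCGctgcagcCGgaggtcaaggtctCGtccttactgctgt
ZNF180 (chr19:44500473-44500772, reverse strand): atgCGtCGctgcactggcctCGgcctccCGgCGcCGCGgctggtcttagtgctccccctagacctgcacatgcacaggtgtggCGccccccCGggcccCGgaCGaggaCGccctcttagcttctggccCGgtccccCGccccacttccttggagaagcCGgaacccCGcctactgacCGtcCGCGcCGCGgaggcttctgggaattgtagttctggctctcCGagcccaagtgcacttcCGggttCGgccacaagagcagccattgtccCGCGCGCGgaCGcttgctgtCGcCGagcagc
ZNF229 (chr19:44448423-44448722, reverse strand): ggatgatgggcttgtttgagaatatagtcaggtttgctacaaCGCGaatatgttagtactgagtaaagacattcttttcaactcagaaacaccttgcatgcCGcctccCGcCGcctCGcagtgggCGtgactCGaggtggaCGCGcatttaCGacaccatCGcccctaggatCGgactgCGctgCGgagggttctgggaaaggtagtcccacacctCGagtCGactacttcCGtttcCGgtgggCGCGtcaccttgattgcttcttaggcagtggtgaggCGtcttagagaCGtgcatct
ZNF91 and ZNF208 shared 262 of 293 aligned bases (89.4%), and held 11 and 10 CG dinucleotides. ZNF180 and ZNF229 shared 145 of 187 aligned bases (77.5%), with 31 and 23 CG dinucleotides. Gaps were allowed and left out of these counts, so ZNF180 and ZNF229 were not shown to be similar over their whole promoter windows. The negative gene of each pair had the lower CG count. Its observed-to-expected CpG ratio was 0.414 in ZNF208 against 0.448 in ZNF91, and 1.04 in ZNF229 against 0.876 in ZNF180. GC content was 57% in ZNF208 and 57.3% in ZNF91, and 54.3% in ZNF229 and 69.3% in ZNF180. The pairs were picked by their call, and a link of the call with these values was not tested.

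The ATF/CREB site TGACGTCA is the sequence to which ATF1, and with it the fusion, is known to bind. It was found on either strand of the 300-base promoter of 9 members (3.66%). The share was also 3.66% in other genes of chromosome 19 (45 of 1230), and 2.69% in all protein-coding genes. All 9 members with the site were positive, against 83.7% of all members. Of the 45 other genes with it 33 were positive, against 59.9% of all other genes of the chromosome. The 9 sites are shown with the bases around them in hg38, 5′ to 3′ on the strand of the gene, with the site in capitals.
ZNF266 (chr19:9435562-9435611, reverse strand): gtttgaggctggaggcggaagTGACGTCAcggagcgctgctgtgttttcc
ZNF426 (chr19:9538638-9538687, reverse strand): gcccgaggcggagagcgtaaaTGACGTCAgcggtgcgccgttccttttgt
ZNF121 (chr19:9584526-9584575, reverse strand): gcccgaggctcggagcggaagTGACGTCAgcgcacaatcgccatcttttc
ZNF561 (chr19:9621227-9621276, reverse strand): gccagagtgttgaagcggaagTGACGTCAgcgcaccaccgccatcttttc
ZNF562 (chr19:9675079-9675128, reverse strand): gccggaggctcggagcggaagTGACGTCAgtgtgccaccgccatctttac
ZNF875 (chr19:37334615-37334664, forward strand): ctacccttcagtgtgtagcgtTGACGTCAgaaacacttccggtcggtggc
ZNF460 (chr19:57280433-57280482, forward strand): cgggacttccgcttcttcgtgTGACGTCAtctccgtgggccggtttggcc
ZNF543 (chr19:57320457-57320506, forward strand): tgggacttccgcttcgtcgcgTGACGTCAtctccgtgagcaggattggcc
ZNF547 (chr19:57363477-57363526, forward strand): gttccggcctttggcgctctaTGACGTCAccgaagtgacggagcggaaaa
ZNF266, ZNF426, ZNF121, ZNF561 and ZNF562 lie in cluster 2, where the negative gene ZNF560, without the site, separates ZNF266 from the others, ZNF875 lies in cluster 6, and ZNF460, ZNF543 and ZNF547 lie in cluster 10. The first base of the site stood between 7 and 50 bases before the canonical start in the 5 genes of cluster 2, and 6 bases after it in ZNF543. The stretches were lined up on the site, so each count of identical bases below includes its 8 bases. ZNF121, ZNF561 and ZNF562 were alike over the 50 bases shown. ZNF121 had 43 identical bases with ZNF561 and with ZNF562, and ZNF561 had 41 with ZNF562. These sites may be copies and are not taken as separate cases. ZNF266 and ZNF426 shared 26 to 32 bases with each other and with those genes. ZNF460 and ZNF543 shared 44 of 50 bases, while ZNF460 and ZNF547 shared 16. The site lay inside a peak in 8 of the 9 genes, the exception being ZNF875, whose own promoter peak of 570 bases did not reach it. Over whole promoter peaks, TGACGTCA was present in 16 of the 223 peaks at members (7.17%, 58.7 sites per Mb) and in 49 of the 900 peaks at other genes of the chromosome (5.44%, 35.3 per Mb). The peaks at members were narrower, spanning 273 kb in all against 1531 kb, and possible copies were counted separately. The densities therefore do not show an excess of sites at members. Binding of the fusion was not measured in these samples.

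The peaks of positive members sat on their start sites. The canonical start lay inside a peak in 179 members (72.8%), compared with 595 of the 1230 other genes (48.4%) and 53.5% of all protein-coding genes. In a further 22 members a peak lay within 1 kb of it, and in none between 1 and 3 kb. In the remaining 5 positive members the promoter peak stood at another annotated start, and its nearest edge lay 7155 bases from the canonical start in ZNF585B, 9849 in ZNF587B, 16595 in ZNF331, 35278 in ZNF28 and 143344 in ZNF536. ZNF28 shared its peak of 750 bases with ZNF468. Around the 3 kb limit the members fell far apart. The positive member whose peak lay farthest from any of its starts was ZNF665, at 247 bases, and the nearest negative member was ZNF714, at 6071 bases. The negative member farthest from any peak was ZNF729, at 347340 bases, and the median over the 40 negative members was 33698 bases.

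Coverage around the start rose to 85.5% of short-arm members at 100 bases downstream and to 76.7% of long-arm members at 200 bases downstream. Other genes of the chromosome reached 49.1% at 100 bases downstream, with broader flanks. At 1 kb downstream 26.5% of short-arm members, 7.36% of long-arm members and 22.4% of other genes lay under a peak, and at 1 kb upstream 4.82%, 10.4% and 19%. At 2 kb downstream 1.2% of short-arm and 1.84% of long-arm members were covered, against 8.62% of other genes. Among genes whose start lay in a peak, the peak reached further downstream than upstream in 123 of 179 members (68.7%) and in 396 of 595 other genes (66.6%). The downstream side was the longer in 49 of 62 short-arm members (79%) and in 74 of 117 long-arm members (63.2%).

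**Figure D2:**
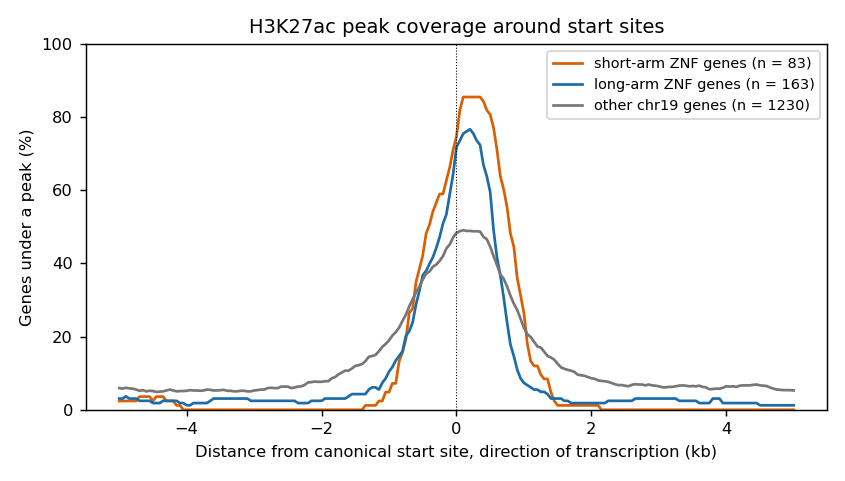
Percent of genes whose position lies under an H3K27ac peak (y axis) by distance from the canonical start in the direction of transcription (x axis, kb) for 83 short-arm and 163 long-arm zinc finger genes and 1230 other chromosome 19 genes. Both zinc finger curves are tall and narrow, and the curve of other genes is lower with broader flanks.

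Members usually had 1 promoter peak, and it was narrow. A single peak was found at 179 members (72.8%), 2 peaks at 24 and 3 at only 3, namely ZNF846 (4640 bases summed), ZNF526 (2160 bases) and ZNF575 (5520 bases), while 106 other genes (8.62%) had 3 or more. The widest promoter peak of a positive member had a median width of 1070 bases (quartiles 782 and 1595), compared with 1730 bases (1170 and 2630) in other genes of the chromosome and 1600 bases in all protein-coding genes. ZNF genes of other chromosomes lay between, at 1390 bases. With each peak counted once the medians were 1030 bases over 223 peaks at members and 1270 bases over 900 other promoter peaks. Peaks over 3 kb made up 1.79% of the members' peaks (4) and 12% of the others (108). Counted by peak, those under 600 bases made up 11.7% (26) at members and 15.9% (143) at others. That count includes the narrower peaks of genes with more than 1 peak. By the widest peak per gene the lower quartile was the lower in members, at 782 against 1170 bases.

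Restricting the list to the widest 50% of all peaks, those of at least 1060 bases, changed the order of the groups. Only 105 members (42.7%) kept a promoter peak under this limit, against 589 of the other genes of the chromosome (47.9%) and 49% of all protein-coding genes. On the short arm the shares were then 57.8% for members (48 of 83) and 58.2% for other genes, and on the long arm 35% (57 of 163) and 39.3%. The higher share of positive members therefore held for the presence of a peak of any width and not for a wide one.

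Short-arm members had the wider peaks, with a median of 1440 bases (940 to 1700) against 980 bases (740 to 1380) on the long arm. Other genes differed between the arms in the same direction, at 1930 and 1460 bases. Widths differed within the short arm, with medians of 1600, 1470 and 1610 bases in clusters 1, 2 and 3. Without cluster 3 the short-arm median was 1210 bases over 46 members. Without clusters 2 and 3 it was 1020 bases over 35, of which 28 belong to cluster 4. Without cluster 4 it was 1540 bases, and the long-arm median without cluster 9 was 970 bases. These clusters were left out after their widths were seen, so the medians do not show which clusters the difference between the arms rests on. Cluster 4 had a median of 1000 bases, cluster 10 also 1000 bases, cluster 8 (ZNF175 to ZNF331) 900 bases and cluster 7 840 bases. Cluster 9 (ZNF628 to ZNF835, chr19:55476617-56671783) was the widest of the long arm at 1750 bases.

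On the short arm the widest promoter peaks were those of ZNF564 (2800 bases), ZNF823 (2480), ZNF414 (2230), ZNF69 (2120), ZNF653 (2080) and ZNF44 (2070). All but ZNF414 belong to cluster 3. On the long arm the widest was the peak of ZNF114, at 5540 bases (chr19:48268471-48274010), in a gene outside every cluster whose promoter had a CpG ratio of 0.14. ZNF580 and ZNF581, short proteins whose starts lie close together, shared 1 peak of 4520 bases that also lay within 3 kb of a start of CCDC106. ZNF628 followed with 4210 bases, ZNF787 with 4090 and ZNF576 with 2690. All of these long-arm genes but ZNF114 lie in clusters 7 and 9.

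**Figure D3:**
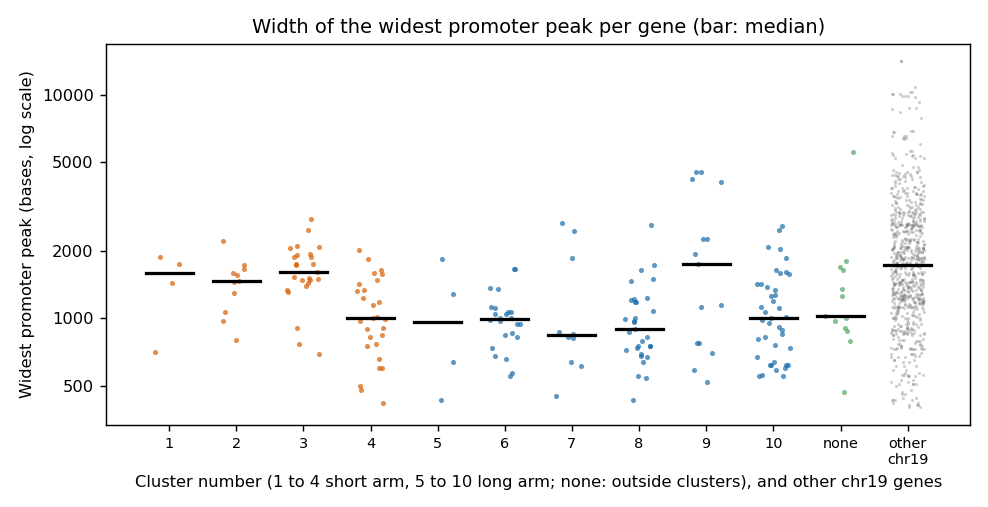
Width of the widest promoter peak of each positive gene (y axis, bases, log scale) by cluster (x axis), for members outside clusters and for other chromosome 19 genes, where each point is a gene and the bar is the median. Medians of clusters 1, 2, 3 and 9 lie at 1470 bases or more, and those of the other clusters at 1000 bases or less.

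Many starts were close enough to share a peak. Of the 223 peaks at members, 13 served 2 members, such as ZNF490 with ZNF791, ZNF565 with ZNF146, ZNF829 with ZNF568 and ZNF540 with ZNF571, and 40 also lay within 3 kb of a gene that is no member. Genes that are no members here included read-through genes such as ZNF559-ZNF177, which overlap members. In all, 48 positive members had shared peaks only. When peaks within reach of more than 1 protein-coding gene were set aside, a rule chosen after seeing the data, 158 members (64.2%) and 445 other genes (36.2%) were positive, so the order of the groups did not change.

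Members with a KRAB box were positive at 171 of 207 (82.6%) and those without at 35 of 39 (89.7%). Their peaks differed more in width than in presence, with a median of 1010 bases in KRAB members and 1730 bases in members without KRAB, the latter equal to that of other genes of the chromosome. With the widest 50% of peaks, 80 KRAB members (38.6%) and 25 members without KRAB (64.1%) were positive. In cluster 9, the widest of the long arm, 10 of the 16 members had no KRAB box. The number of zinc fingers had a median of 12 in positive and 12.5 in negative members.

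Among members with a described role, ZNF91 had 1 peak of 1150 bases and ZNF93, which silences LINE-1 elements, 1 of 1840 bases. ZNF43 (1600 bases) and ZNF85 (830 bases), also of cluster 4, were positive. ZNF274, which binds the 3′ ends of other zinc finger genes and recruits SETDB1 there, had a peak of 1650 bases. ZNF568, whose mouse counterpart represses a placental transcript of Igf2, had 940 bases and ZNF382 had 1110 bases. ZNF808, a primate-specific KRAB factor needed for pancreas development, had 1650 bases. Also in cluster 8 of the long arm, ZNF816 had 1220 bases and ZNF347 had 690 bases. Further members of this list were positive, with widest peaks of 1450 bases (ZNF558), 1310 (ZNF20), 770 (ZNF136), 2070 (ZNF44), 970 (ZNF507), 1130 (ZNF667), 820 (ZNF180) and 1260 (ZNF296). With ZNF331 and ZNF536, described among the distal peaks, 20 of the 24 genes of this list were positive (83.3%, against 83.7% of all members). ZNF208, ZNF257, ZNF175 and ZNF350, a partner of BRCA1, were not.

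The 40 negative members lay mostly in clusters 4, 7 and 8. In cluster 4 they were ZNF90, ZNF714, ZNF208, ZNF257, ZNF676, ZNF729, ZNF98, ZNF723 and ZNF728. ZNF208, ZNF257, ZNF676, ZNF729 and ZNF98 were neighbours and spanned 600 kb without a peak of any kind, within a peak-free stretch of 768 kb (chr19:21866111-22633780). In cluster 7 the negative genes were ZNF283, ZNF404, ZNF221, ZNF155, ZNF230, ZNF222, ZNF223, ZNF284, ZNF225, ZNF233, ZNF112, ZNF285 and ZNF229. The 6 neighbours (in order of gene start) from ZNF221 to ZNF284 spanned 138 kb (chr19:43951223-44089613) without any peak, and the 4 from ZNF233 to ZNF229 spanned 189 kb with 1, the promoter peak of ZNF235. The positive genes of cluster 7 stood at its edges and among the negative ones. ZNF575 (2470 bases), ZNF576 (2690) and ZNF428 (1870), at its first edge, had wide peaks, whereas ZNF45 (870), ZNF224 (640), ZNF226 (610), ZNF227 (830), ZNF234 (850), ZNF235 (450) and ZNF180 (820) had narrow ones. All 4 members of the cluster without a KRAB box were positive, and 6 of its 19 KRAB members.

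In cluster 8 the negative genes were ZNF175, ZNF577, ZNF350, ZNF841, ZNF534, ZNF578, ZNF415 and ZNF677, spread among 31 positive ones. The rest were single genes or pairs, ZNF556 in cluster 1, ZNF177 and ZNF560 in cluster 2, ZNF30 in cluster 5, ZNF585A and ZNF793 in cluster 6, ZNF835 in cluster 9, ZNF154 and ZNF132 in cluster 10, and ZNF541 outside clusters. Genes without a peak were below the threshold of the peak caller, and the list does not show that they lacked acetylation. Because the genes are similar in sequence, the share of 50-base words within 1 kb of the start that occur elsewhere in hg38 was also taken, since reads from such words can be hard to place. Its median was 1.77% in positive and 1.69% in negative members. Of the 31 members with more than 10% of such words 24 were positive (77.4%), and of the 82 with none 72 were positive (87.8%). The part of read placement in the absence of a peak was not tested.

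The CpG ratio, the number of CG dinucleotides over that expected from base composition, was taken over the 300-base promoters. Its median was 0.781 in positive and 0.717 in negative members. In other genes of the chromosome the medians were 0.856 and 0.384, so the gap between positive and negative genes was far wider there. Of the 54 members with a ratio below 0.6, 44 were positive (81.5%, 69.2% to 89.6%), against 124 of 483 other genes (25.7%, 22% to 29.7%). At 0.6 or more the shares were 84.4% (162 of 192) and 82.1% (613 of 747). The ratio was taken at the canonical start and the call at any annotated start, so they could refer to different promoters. In ZNF536, for example, the ratio was 0.178 and the promoter peak lay 143344 bases from the canonical start. Clusters 3 and 4 held 40 of the 54 members with a low ratio, with medians of 0.605 and 0.467, and there all 12 (cluster 3) and 22 of 28 (cluster 4) were positive. Conversely, 30 of the 40 negative members (75%) had a ratio of 0.6 or more, compared with 134 of the 493 negative other genes (27.2%). In cluster 7 all 10 positive genes and 10 of the 13 negative ones had such a ratio.

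**Figure D4:**
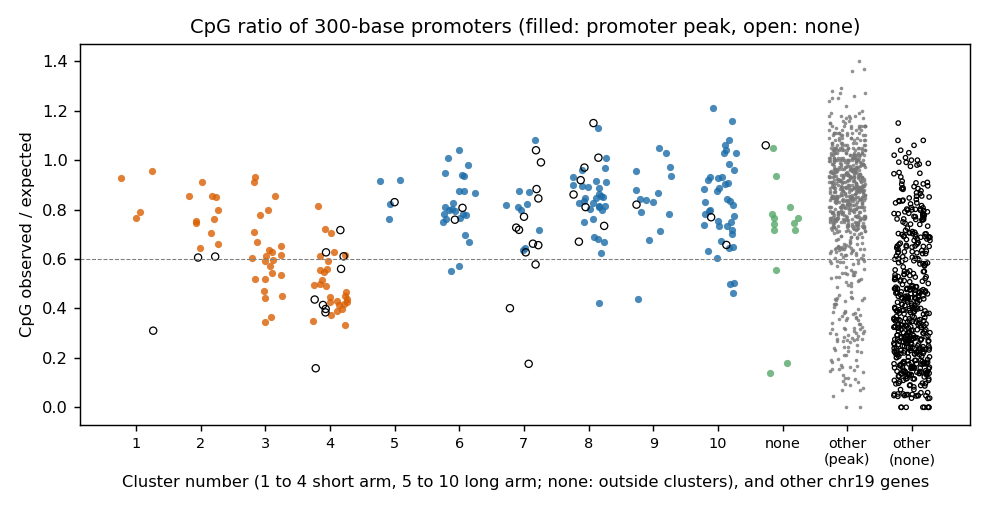
CpG observed-to-expected ratio of the 300-base promoter (y axis, no unit) by cluster (x axis), for members outside clusters and for other chromosome 19 genes, where filled points have a promoter peak and open points have none. Most open points of members lie above the dashed line at 0.6, whereas most of the open points of other genes lie below it.

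Short motifs were counted in the same 300 bases, as a description of the reference sequence. CCGGAAG, a core bound by ETS factors, was found on either strand in 110 members (44.7%), 15.1% of other genes of the chromosome and 14.1% of all protein-coding genes. In members it was as frequent without a peak (20 of 40, 50%) as with one (90 of 206, 43.7%), while in other genes it was found in 4.26% of negative and 22.4% of positive promoters. It was held by 25 of 37 members in cluster 4, 24 of 39 in cluster 8 and 27 of 43 in cluster 10, but by 2 of 25 in cluster 3. CCAAT was found in 52.8% of members and 36.1% of all genes, and in 23 of 25 promoters of cluster 3 and 36 of 37 of cluster 4. GGGCGG was found in 67.5% of members and 61.3% of all genes, and TATAAA in 2.85% and 9.71%. These matches share bases with CG counts and with copies of the same ancestral promoter, so that neighbouring genes are not separate observations.

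Peaks beyond 3 kb of every annotated start, here called distal, were sparse among the clusters. Of the 1606 peaks on chromosome 19, 368 were distal, and 36 of these lay in the 14.4 Mb of the clusters. This was 2.5 per Mb (95% Poisson interval 1.75 to 3.46), against 332 in the remaining 44 Mb (7.54 per Mb, 6.75 to 8.4). Distal peaks covered 0.318% of bases in the clusters and 0.851% elsewhere on the chromosome. Peaks within 3 kb of a start differed less, at 17.8 per Mb in clusters (256) and 22.3 per Mb elsewhere (982). The short-arm clusters held 10 distal peaks (1.42 per Mb, 0.682 to 2.62) and the long-arm clusters 26 (3.52 per Mb, 2.3 to 5.15), with overlapping intervals. Clusters 1, 2, 5 and 6 had none. Cluster 7 had the highest density at 10.3 per Mb (4.92 to 18.9), but all 10 of its distal peaks lay before ZNF283, among genes that are no members. From ZNF283 on there were 20 members, of which 7 were positive, and no distal peak.

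**Figure D5:**
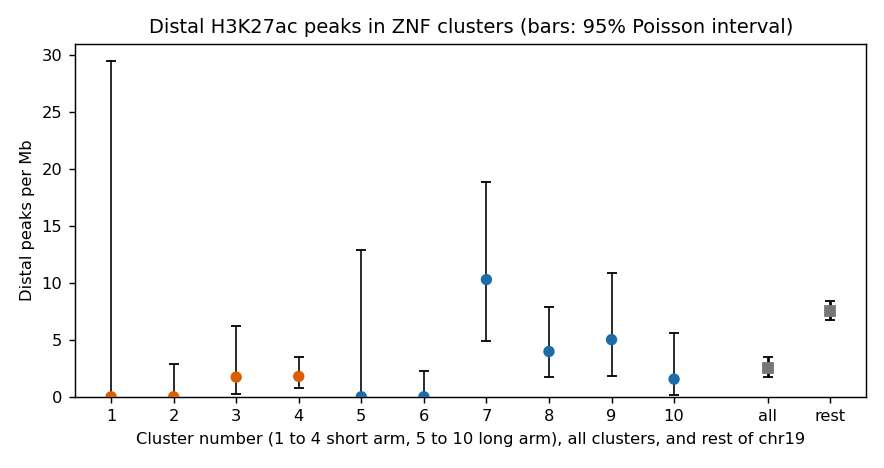
Distal H3K27ac peaks per Mb (y axis) in each of the 10 clusters (x axis), in all clusters together and in the rest of chromosome 19, where error bars are exact 95% Poisson intervals. All clusters together lie at 2.5 per Mb and the rest of the chromosome at 7.54.

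Within gene bodies, 11 of 246 members (4.47%, 2.51% to 7.83%) held a distal peak, compared with 100 of 1230 other genes of the chromosome (8.13%) and 13.4% of all protein-coding genes. Density was 2.66 per Mb of gene body (1.62 to 4.11) in members and 8.05 per Mb (7.01 to 9.19) in other genes, the members having the longer bodies (medians 25902 and 13908 bases). The median distance from the start to the nearest distal peak was 324916 bases in members and 94232 bases in other genes, and 14.2% (35) and 32.6% (401) had one within 50 kb. The short arm held 5 of the 11 members and the long arm 6.

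ZNF331, a KRAB gene with several alternative promoters, had the most distal acetylation of the members, with 6 peaks that covered 11040 bases. They included peaks of 3220 bases (chr19:53543871-53547090), 3330 bases (chr19:53568051-53571380) and 2450 bases (chr19:53571701-53574150), whereas its promoter peaks measured 540 and 440 bases. ZNF787 had 3 distal peaks over 6110 bases, the widest of 3470 bases (chr19:56087711-56091180). ZNF536, a repressor of neuronal differentiation that lies outside the clusters, had 3 distal peaks over 3750 bases and 2 promoter peaks of 1590 and 1810 bases. ZNF8 (2490 bases), ZNF714 (2 peaks, 1560 bases) and ZNF708 (1470 bases) followed, and ZNF714 was the only one of these without a promoter peak. ZNF331, ZNF787 and ZNF536 thus carried 12 of the members' 20 distal peaks.

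The zinc fingers of most members are encoded in a long last exon, whose coding part had a median length of 1529 bases against 156 bases in other genes. A peak of any kind overlapped it in 5 members, ZNF628, ZNF579, ZNF580, ZNF581 and ZNF787, and a distal peak in ZNF787 only (0.407% of members and 0.976% of other genes). All 5 of these genes had a promoter peak, and in the other positive members no peak reached the coding part of the last exon.

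A chosen list of genes through which KRAB factors act was also examined. All 20 cofactor genes of this list had a promoter peak (100%, 83.9% to 100%), against the 63.4% of all protein-coding genes. Genes of similar expression were not set beside them. Their widest peaks had a median of 1495 bases. TRIM28, the corepressor that binds the KRAB box and is itself encoded on chromosome 19, had a peak of 3040 bases. SETDB1, the methyltransferase, had the narrowest at 850 bases and its partner ATF7IP 930 bases. The heterochromatin proteins CBX1, CBX3 and CBX5 had 950, 3710 and 2660 bases. CHD3 had the widest, at 5070 bases, and CHD4 had 5 peaks of 10480 bases in sum, both being helicases of the NuRD complex. The HUSH complex genes TASOR (1380), MPHOSPH8 (1170), PPHLN1 (1610) and the associated MORC2 (1660) were positive. DNMT1 (2480) and UHRF1 (1240), which maintain DNA methylation, and the de novo enzymes DNMT3A (3180) and DNMT3B (1280) were positive as well. The remaining genes of the list had peaks of 1660 bases (DAXX), 1110 (ATRX), 950 (SMARCAD1) and 1020 (RESF1).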

How the data were processed

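H3K27ac ChIP-seq was performed by the authors on SU-CCS-1 cells (3 ChIP and 3 input samples, grouped by title). Per the labels' processing notes, BWA 0.7.10-r789 and MACS2 2.2.6 were used with hg38, and the study's methods give broad calling over input. The authors deposited 1 merged peak list with 4 columns, whose values are positions in bases and a name, and 0 columns of per-sample values. Width therefore depends on the caller's joining rule and on depth.

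Members, starts and bodies came from GENCODE version 44, with the arms split at 26 Mb. Shares were given 95% Wilson intervals and densities exact Poisson intervals (scipy 1.17.1). Proteins were translated from canonical coding exons, and a KRAB A box needed 8 of the 10 fixed residues of the pattern searched. Scripts were tested on simulated data. Motifs were matched exactly, on both strands.

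Values were named for the 6 widest promoter peaks per arm, members with 3 or more promoter peaks, negative members, the 6 members with the most distal bases, a list of 24 members of described role or position, and the cofactor list. ATF/CREB site genes, the positive genes of cluster 7 and the peaks far from a canonical start were chosen after their values were seen, as were the motifs other than TGACGTCA, the CpG split at 0.6 and the word repeats. The members and lists were chosen with earlier results of these data known.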

Additional observations from a re-analysis of the deposited data

How the results depend on the processing

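Of 88 alternatives over 16 results, 58 kept the value inside its counting interval and 30 moved it. Members stayed above other chromosome 19 genes in the share with a promoter peak in 7 of 8 settings. The order reversed with the widest 50% of peaks. With the widest 50% of peaks only, the shares were 42.7% for members, 57.8% for the short arm, 35% for the long arm and 47.9% for other genes, and median widths were 1580, 1590, 1580 and 2000 bases. Distal density was then 0.832 per Mb in clusters and 2.73 in the rest of the chromosome, and 2.44% of members and 3.9% of other genes had a distal peak in the body. The share of other genes was 56.6% with a 1 kb window, 55.4% with canonical transcripts, 54.1% with the start inside the peak and 56.4% with protein-coding transcripts. Their median width was 1270 bases with each peak once and 2040 with promoter peaks summed. Distal density beyond 3 kb of protein-coding transcripts was 4.16 per Mb in clusters and 11.9 in the rest, and beyond 1 kb of a start it was 11.2 in the rest. Other genes with a distal peak in the body then made up 13.4% and 14.1%. Alternatives added after seeing the data left out peaks at more than 1 coding gene (members 64.2%, other genes 36.2%) or single clusters. The long arm was positive at 89.3% without cluster 7 and the short arm at 93.5% without cluster 4. The short-arm width was 1210 bases without cluster 3, 1020 without clusters 2 and 3, and 1540 without cluster 4. Cluster 7 stayed at 43.5% under each window and start definition and was at 13% with the widest 50% of peaks. With neighbours up to 1 Mb apart there were 9 clusters of 235 members.

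No paired analysis was possible because replicates have no column of their own in the list, and leaving out a replicate was not possible either. The depth behind a peak is unknown, so a member without a peak was not detectable at this threshold. Width and presence both depend on depth and on the joining of neighbouring enriched stretches.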

Other observations

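Other gene families that lie in tandem on chromosome 19, chosen after the data were seen, had few promoter peaks. Of all other protein-coding genes of the chromosome, which include these families, 59.9% were positive. Expression of these families in the cells was not examined. None of 20 olfactory receptor genes, 17 KIR and LILR immune receptor genes, 22 PSG and CEACAM genes and 12 cytochrome P450 genes was positive. KLK15 was the 1 positive gene of 15 kallikreins, and SIGLEC11 the 1 of 11 SIGLEC genes. Other genes with a zinc finger symbol that the rule on ZNF numbers left out were positive at 14 of 21 (66.7%). The interval of this share, 45.4% to 82.8%, held the 59.9% of other genes of the chromosome. These positive genes included the read-through genes ZNF559-ZNF177, ZNF625-ZNF20 and ZNF816-ZNF321P, each of which shared a peak with a member.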
